A study of Mus musculus with 8 samples.

Results

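Large intergenic noncoding RNA (lincRNA) regions are stretches of the genome between protein-coding genes that carry the chromatin marks of a transcribed gene, and the array used here places 60-base probes along 3555 of them, often on both DNA strands. The regions described here are the 1398 in which at least 2 such probes were well above background, by the scanner's own test, on all 8 arrays of mouse thyroid. They hold 5007 detected probes, which cover 1976 region strands, a region strand being 1 strand of 1 region. Another 990 regions had 1 detected probe and 1167 had none. Coordinates and strands are those of the array files, in mouse build mm9. The members were thus chosen by their own signal and by how many probes each region carries, so their brightness is given as a description.

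Thyroids came from female Balb/c mice of 8 weeks on a normal-iodide diet. The exposed group (Tc, replicates S539, S588, S589 and S590) had received the radioisotope 99mTcO4-, which the thyroid takes up as it does iodide, with an absorbed dose of 30 Gy to the gland, and was sampled at 24 hours. The control group (Ct, replicates 1 to 4) was described as untreated in the study's text and as given saline in a legend. Each array held total RNA of 1 sample labelled with Cy3, and no source says that animals were pooled. A single slide, scanned once, carried all 8 arrays. Exposed samples filled its first positions and controls the rest, so position and exposure cannot be told apart. Markers of other tissues set some samples apart. The T cell and thymocyte markers had a mean log2 signal of 11.6 and 10.6 in controls 1 and 2 and of 6.76 to 8.05 on the other arrays, and the skeletal muscle markers were lowest in S539 and S589. The comparison asks which of these intergenic transcripts differ in level a day after internal irradiation of the gland.

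Many lincRNAs are spliced and polyadenylated like messenger RNAs, but they are not translated. Some act in the nucleus on chromatin or on nuclear bodies, and several are made under the control of p53, the transcription factor that DNA damage activates. Many lie beside coding genes and can be copied from the opposite strand. A region on the array is a chromatin-defined interval rather than a transcript, so its probes may lie on different transcripts, on introns or on no transcript at all. For that reason the agreement between probes of a region is given before the comparison of the groups.

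The probes that carry the main results follow, 5′ to 3′ as deposited. Those on opposite strands of the same place come first, since each is designed for RNA of its own strand over the same bases. Capitals mark the stretch shared, as its reverse complement, with the partner. Of the pair at chr1:163508244-163586072, the forward probe (chr1:163527676-163527735) shares 56 bases with the reverse probe (chr1:163527672-163527731).
A_30_P01033274: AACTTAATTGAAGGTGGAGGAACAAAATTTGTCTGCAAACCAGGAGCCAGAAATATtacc
A_30_P01017790: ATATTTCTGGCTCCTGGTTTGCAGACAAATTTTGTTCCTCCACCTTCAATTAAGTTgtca
Of the pair at chr17:88225376-88238756, the forward probe (chr17:88238658-88238717) shares 46 bases with the reverse probe (chr17:88238672-88238731).
A_30_P01030381: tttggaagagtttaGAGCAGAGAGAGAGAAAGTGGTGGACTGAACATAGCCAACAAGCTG
A_30_P01018528: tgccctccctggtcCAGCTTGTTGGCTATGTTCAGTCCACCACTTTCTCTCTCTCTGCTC

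At chr17:29183003-29217681, on the side of Cdkn1a, 4 reverse-strand probes adjoin without a gap from chr17:29207178 to chr17:29207417. They are shown in order of coordinate, which runs against the 5′ to 3′ direction of their strand, because they did not change to the same extent. No capitals are used, as no stretch is shared.
A_30_P01027010: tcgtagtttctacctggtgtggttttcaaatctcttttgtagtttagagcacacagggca
A_30_P01020960: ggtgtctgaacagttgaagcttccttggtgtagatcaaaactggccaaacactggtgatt
A_30_P01022528: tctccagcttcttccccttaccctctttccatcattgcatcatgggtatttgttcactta
A_30_P01022991: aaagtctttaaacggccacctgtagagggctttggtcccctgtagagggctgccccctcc
At the Pvt1 locus, the long region chr15:61984389-62102500 has 3 detected forward probes that differ in their change, at chr15:62086046-62086105, chr15:62091014-62091073 and chr15:62095888-62095947.
A_30_P01029551: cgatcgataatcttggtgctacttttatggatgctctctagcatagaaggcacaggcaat
A_30_P01026887: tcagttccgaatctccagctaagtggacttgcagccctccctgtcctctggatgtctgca
A_30_P01027502: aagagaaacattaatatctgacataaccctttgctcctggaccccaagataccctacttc
The region chr15:62046023-62082530 has a detected pair that adjoins, at chr15:62082411-62082470 and chr15:62082471-62082530. The second, in capitals throughout, has the same 60 bases as the array's own probe for the Pvt1 gene.
A_30_P01027654: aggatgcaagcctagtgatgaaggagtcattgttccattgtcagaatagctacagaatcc
A_30_P01029562: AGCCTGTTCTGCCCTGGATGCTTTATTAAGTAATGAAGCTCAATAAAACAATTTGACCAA
The probes of the highest rise, chr4:149445201-149445902 forward, and of the fall at chr2:67411703-67412293 forward are given last.
A_30_P01032002: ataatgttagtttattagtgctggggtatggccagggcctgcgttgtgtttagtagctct
A_30_P01024344: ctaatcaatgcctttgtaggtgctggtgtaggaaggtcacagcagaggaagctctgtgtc
A_30_P01025511: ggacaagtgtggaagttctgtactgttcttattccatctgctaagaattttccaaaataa
A_30_P01018859: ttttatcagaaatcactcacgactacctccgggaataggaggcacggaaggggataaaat
A_30_P01018743: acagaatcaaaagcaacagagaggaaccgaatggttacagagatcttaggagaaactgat
A_30_P01029526: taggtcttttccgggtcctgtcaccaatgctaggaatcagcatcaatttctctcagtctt

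LincRNA probes were detected less widely than probes for annotated genes. Of 16251 lincRNA probes, 5997 (36.9%) were well above background on every array, against 19444 of 27752 RefSeq probes (70.1%), while 3024 lincRNA probes were above it on none. The share of lincRNA probes above background on an array ranged from 41.7% (Ct 4) to 63.0% (Ct 1) in controls and from 58.0% (S590) to 67.6% (S588) in exposed thyroids. Since a probe had to be detected on every array, one that dropped below background in either group is not a member, and control 4 had the lowest share.

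The 1398 member regions had a median length of 12151 bases (131 to 533972) and a median of 5 designed probes, against 3 in the other regions. Regions with no detected probe had a median length of 2867 bases. All designed probes were detected in 377 member regions. At the edge of the rule, 541 regions had exactly 2 detected probes, with a median log2 signal of 7.27, and the 990 regions just outside, with 1, had 7.26. At the other end 42 regions had 10 or more. Member regions overlap one another on the genome: 628 overlap another member, up to 8 at one place, and merging them leaves 1038 loci.

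Detected lincRNA probes were dim beside other detected probes. The median log2 signal of member probes was 7.68 (10th to 90th percentile 6.43 to 10.67, range 5.53 to 17.7). That of detected probes outside lincRNA regions was 9.74, and that of lincRNA probes not detected on all arrays was 4.60. A probe's brightness depends on its sequence as well as on its RNA, and these medians therefore describe sets of probes and rank no transcript against another.

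Detection followed base composition. The share of lincRNA probes detected on all arrays rose from 13.4% of those under 30% GC to 74.0% of those at 60% GC or more, through 33.4% between 40 and 45% GC and 56.7% between 50 and 55%. The median GC content was 45% in member probes (quartiles 41.7% and 53.3%) and 43.3% (38.3% and 45%) in those not detected on all arrays. The hexamer AATAAA, the commonest polyadenylation signal, was in 4.07% of member probes on the probe's own strand. It was in 3.79% of lincRNA probes not detected on all arrays and in 3.92% of all lincRNA probes. Its reverse complement TTTATT was in 2.64%, 3.28% and 3.03%. By chromosome the share of regions that were members ran from 29.7% on chromosome 18 and 31.0% on X to 51.9% on chromosome 11.

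Of the 1398 regions, 209 (14.9%) had a probe of a RefSeq gene inside the interval, and for the rest the nearest RefSeq probe lay at a median of 22546 bases. On the same strand, 195 region strands held a RefSeq probe. These regions are therefore intergenic by the array's design but not always clear of annotated genes.

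Probes of the same strand of a region moved together more than probes of its opposite strands. Over the 8 arrays, 5925 pairs of detected probes on the same strand of a region had a median Pearson's r of 0.51 (quartiles 0.04 and 0.82), and 27.3% of pairs were above 0.8. For 4101 pairs on opposite strands the median r was 0.11 and 4.54% were above 0.8. For 1018 pairs made with the next region strand of another locus it was 0.02, with 2.26% above 0.8. With each group centred on its own mean, which takes the exposure out, the medians were 0.49 for the same strand and 0.06 for opposite strands. Pairs share the arrays and some share a region, so these are descriptions with no test.

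**Figure D1:**
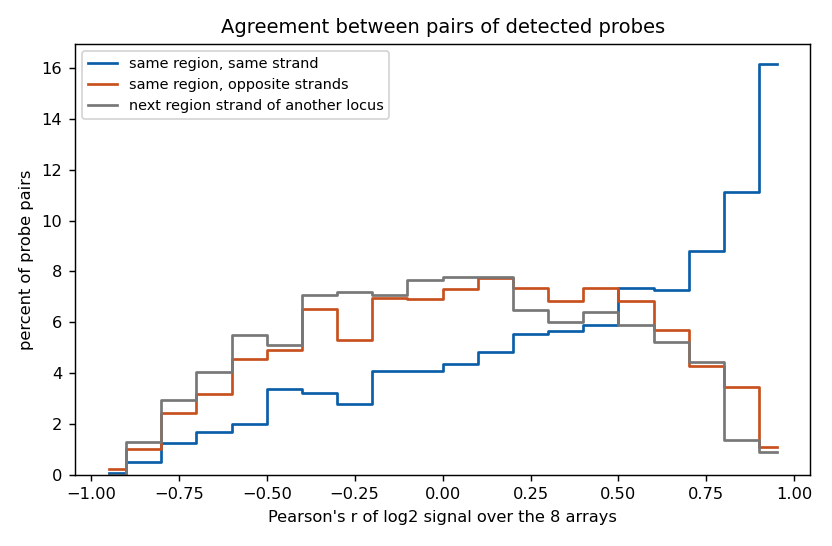
Pearson's r of log2 signal over the 8 arrays (x axis) against the percent of probe pairs (y axis), for pairs on the same strand of a region, on opposite strands, and from neighbouring loci. Same-strand pairs pile up at high r, with 27.3% above 0.8, whereas pairs on opposite strands (median 0.11) lie close to pairs of neighbouring loci (median 0.02).

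The sign of the change behaved the same way. It was shared by 69.9% of same-strand pairs, 58.9% of opposite-strand pairs and 53.5% of neighbouring pairs, and the median difference between the log2 changes of a pair was 0.18, 0.30 and 0.35. Among 1521 region strands with at least 2 detected probes, all probes changed in the same direction in 874 (57.5%).

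Opposite probes over the same bases gave separate readings. The array carries 1726 pairs of opposite-strand lincRNA probes that share at least 30 bases. Both probes were detected in 307 of them, 1 of the pair in 663 and neither in 756. The 300 such pairs among members had a median r of 0.21, and 63.7% shared the sign of change. By contrast 33 member probes have exactly the sequence of a probe outside the lincRNA set: their changes differed by a median log2 of 0.06 (highest 0.65), their median r was 0.91 and 28 of the 33 shared the sign. Readings of the same sequence thus gave closer values than readings of opposite strands.

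After exposure more lincRNA probes passed the threshold upwards than downwards. In the limma fit over every probe of the array, 39 of the 5007 member probes (0.779%) had an adjusted p under 0.05, 33 higher (0.659%) and 6 lower (0.12%), beside 0.781% of all 55681 probes (0.587% higher and 0.194% lower). Among detected probes outside the lincRNA regions the share was 1.19%, with 0.926% higher and 0.264% lower. The members' share was thus near that of the whole array and below that of other detected probes. At an unadjusted p under 0.05 there were 552 member probes.

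The 39 probes lay in 19 regions (1.36% of the members) at 15 loci, 14 regions with higher and 5 with lower probes, and 11 regions had at least 2. The groups did not overlap in 316 member probes higher in exposed thyroids (6.31%, beside 4.74% of all probes) and in 117 lower ones (2.34%, beside 4.37%). The detected probes of a region strand lie in the same interval and are not independent, though they need not read the same transcript. Each region strand was therefore also tested as the mean of its probes. In that fit 15 of 1976 region strands (0.759%) passed, beside 0.777% of all rows, and 13 of them were higher (0.658%, beside 0.581%). They lie at 12 loci, and 13 of the 15 had at least 2 detected probes.

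These calls rest on few arrays. With 1 array left out, the number of the 15 still past the threshold was 13, 4, 10 and 7 without controls 1 to 4, and 5, 10, 4 and 3 without S539, S588, S589 and S590. The direction of change held in every one of these fits. The short region on the Tnfsf18 side of chromosome 1 and the chromosome 4 region near Gpr157 passed in all 8, and for the other 13 the highest adjusted p was between 0.0506 and 0.163.

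Controls 1 and 2, with high thymocyte markers, and S539 and S589, with the lowest muscle markers, were also left out as pairs, after the values were seen. Without controls 1 and 2, 4 member probes in 2 regions and 1 region strand passed, the chromosome 4 region near Gpr157 (2.13, adjusted p = 0.0317). Without S539 and S589 no member probe and no region strand passed in limma, with 442 and 164 at an unadjusted p under 0.05. The changes of the 15 region strands kept their direction in both fits, each of which compares 2 arrays with 4.

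A small shift ran through the whole set. The median log2 change of member probes was 0.11, with 62.8% of probes above 0, against -0.02 and 48.0% for detected probes outside the regions and 0.01 for all probes. Probes of regions with a single detected probe had 0.10. The median of the member probes was 7.61 to 7.75 on control arrays and 7.75 to 7.86 on exposed arrays. The median change of detected lincRNA probes moved with GC content, from -0.055 under 30% GC and -0.073 between 30 and 35% to 0.185 at 60% or more, and its part in the shift was not tested. The exposed arrays also had 75th-percentile signals, background-subtracted but not yet normalized between arrays, of 712 to 891 against 701 to 1230 in controls. The share of lincRNA probes above background was higher on every exposed array than on controls 2, 3 and 4. Scaling to the 75th percentile moved the median of all probes to 0.16 and that of member probes to 0.25.

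**Figure D2:**
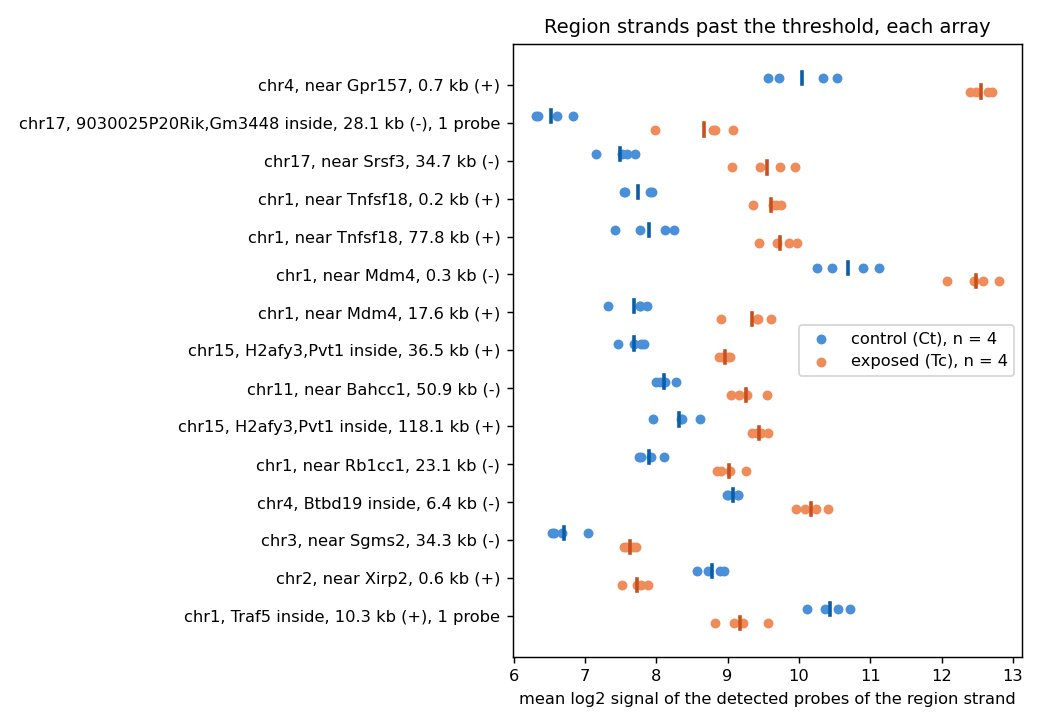
Mean log2 signal of the detected probes (x axis) for each of the 15 region strands past the threshold, with a point for each array and a line at the mean of each group (Ct and Tc, n = 4 each). The groups do not overlap in any row: 13 are higher in Tc, from the chr4 region near Gpr157 (10.04 to 12.56) downwards in size, and 2 are lower.

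Among the called region strands the largest rise was at chr4:149445201-149445902, forward strand, 702 bases long and without a name on the array. Its 3 detected probes averaged 9.57, 9.72, 10.53 and 10.33 in controls 1 to 4 and 12.70, 12.40, 12.48 and 12.65 in S539, S588, S589 and S590. Every exposed thyroid was above every control, and the exposed values lay closer together. The change was a log2 of 2.52 (SE 0.24, 5.75-fold, adjusted p = 0.00665), from 10.04 ± 0.47 to 12.56 ± 0.14 (SD, n = 4 each), and the 3 probes gave 2.46 to 2.63. The genes of the nearest probes did not pass. H6pd, an enzyme of the endoplasmic reticulum pentose phosphate pathway with a probe 91516 bases away, had a change of 0.51. Gpr157, an orphan receptor with a probe 33817 bases away, had -0.14.

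On chromosome 17 the reverse strand of chr17:29183003-29217681 rose beside Cdkn1a, which encodes the cell cycle inhibitor p21 and is a classical p53 target. Its 4 adjoining probes averaged 7.52, 7.16, 7.59 and 7.70 in controls and 9.06, 9.73, 9.46 and 9.94 in S539, S588, S589 and S590, with no overlap. The change was 2.06 (SE 0.22, 4.17-fold, adjusted p = 0.0113). The nearest Cdkn1a probe lies 10305 bases further on, on the forward strand, and both Cdkn1a probes also rose, by 2.72 (adjusted p = 0.0203) and 3.83 (adjusted p = 0.0032). On the other side Srsf3, a splicing factor gene with a probe 2751 bases from the region, had -0.39 (adjusted p = 0.429).

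Within the tile printed above, the first and second probes changed by 2.98 and 2.74, the third by 1.03 and the last by 1.49. The third (A_30_P01022528) was 1.37 lower in its change than the mean of its neighbours (SE 0.15, adjusted p = 0.0282), though it adjoins the second without a gap. The array also names lincP21, a p53-induced RNA of this locus, and gives it a region and probes of its own on the same strand (chr17:29194418-29215906). That interval lies inside the larger region and contains the 4 adjoining probes. None of the 5 probes assigned to lincP21 was detected on all arrays (0 to 6 arrays each), and their changes were -0.20 to 0.98 with adjusted p from 0.475. The single detected forward-strand probe of the larger region had 0.65 (adjusted p = 0.427).

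A pair of overlapping regions beside Mdm4, whose product inhibits p53, rose as well. In the short region chr1:134883350-134883624, reverse strand, 2 probes averaged 10.25, 10.47, 11.13 and 10.89 in controls and 12.81, 12.07, 12.45 and 12.57 in exposed thyroids, a change of 1.79 (SE 0.24, adjusted p = 0.0244). In the long region chr1:134867906-134885481, 4 forward probes averaged 7.77, 7.86, 7.77 and 7.32 against 9.43, 9.61, 8.91 and 9.41, a change of 1.66 (SE 0.20, adjusted p = 0.0158). Neither overlapped between the groups. The 5 reverse probes of the long region changed by 0.80 (adjusted p = 0.117), with 2 of them past the threshold alone.

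Mdm4 is read from the reverse strand. Its nearest probe, 945 bases from the long region, rose by 1.65 (adjusted p = 0.0293) and its other by 1.88 (adjusted p = 0.0213), so the rise on the forward strand of the long region was on the strand opposite to Mdm4. Lrrn2, with a probe 31466 bases away on the other side, had -0.01.

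At Pvt1, a long noncoding RNA gene downstream of Myc and a p53 target, 3 nested or neighbouring regions hold called probes on the forward strand. The region chr15:62046023-62082530 averaged 7.83, 7.69, 7.46 and 7.79 in controls and 9.03, 8.88, 8.93 and 9.01 in exposed thyroids. The groups were well apart and the change was 1.27 (SE 0.13, 2.41-fold, adjusted p = 0.00891). Its probe with the Pvt1 sequence changed by 1.12, and the gene's own probe of the same sequence by 0.94. A second Pvt1 probe changed by 2.75 (adjusted p = 0.0151), whereas Myc, with a probe 162913 bases away from the long region, had -1.04 (adjusted p = 0.131).

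The long region chr15:61984389-62102500 had a mean change of 1.13 (SE 0.17, adjusted p = 0.0314) that hid unequal probes. A_30_P01029551 read 6.45, 6.29, 5.73 and 6.69 in controls and 9.15, 9.08, 9.35 and 9.69 in exposed thyroids, a rise of 3.03 (SE 0.24, adjusted p = 0.0032). A_30_P01026887 (0.19, adjusted p = 0.636) and A_30_P01027502 (0.17, adjusted p = 0.757) overlapped between the groups. Against the other probes of its strand the first changed by 2.85 more (adjusted p = 0.00511). The remaining region, chr15:62090565-62091770, had 1.08 as a mean of 3 forward probes (adjusted p = 0.0792) and 1 probe past the threshold. Its interval also contains A_30_P01026887 on the same strand, so probes within it differed: its own 3 rose by 0.97 to 1.22. The reverse strand of the long region had 0.19.

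**Figure D3:**
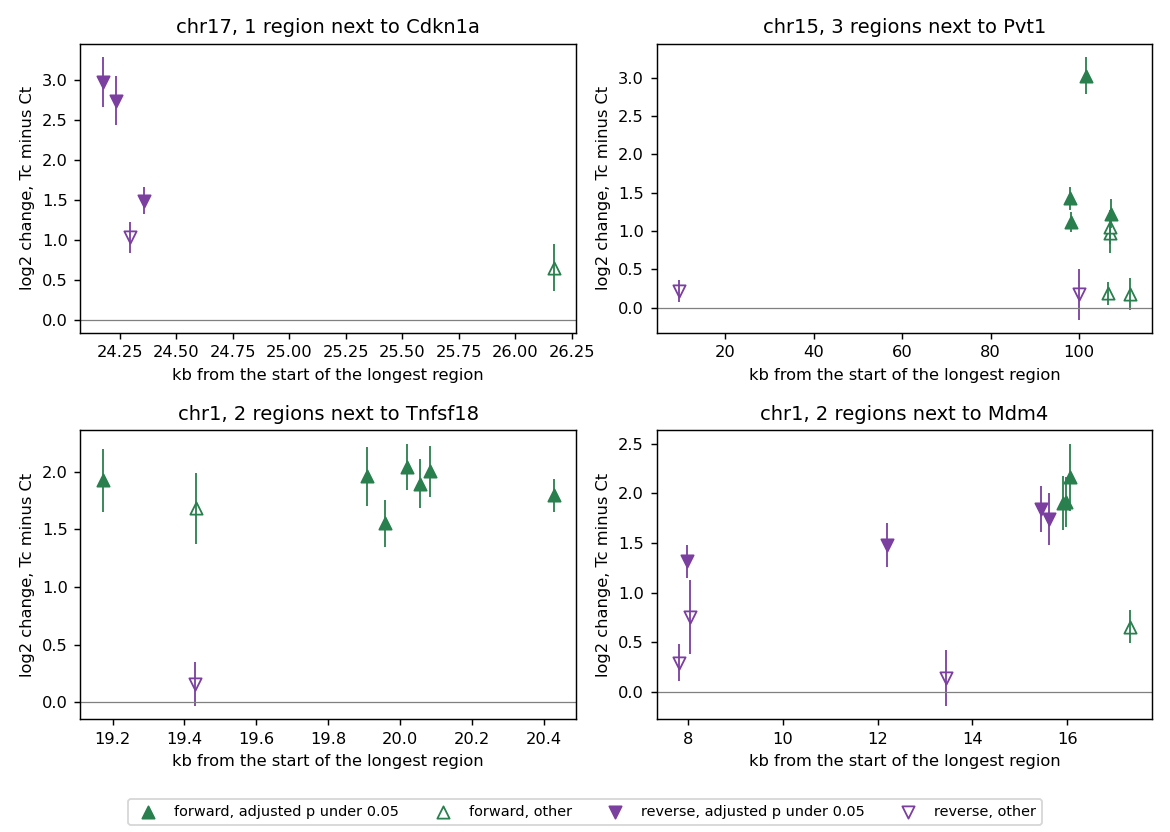
Log2 change of each detected probe (Tc minus Ct, bars are SE) against its distance in kb from the start of the longest region, at the loci next to Cdkn1a, Pvt1, Tnfsf18 and Mdm4. Triangles point up for forward and down for reverse probes and are filled where the adjusted p is under 0.05. At Pvt1 the forward probes range from 0.17 to 3.03, while next to Tnfsf18 the forward probes stay above 1.5 and the single reverse probe is at 0.16.

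Far from any gene probe on chromosome 1, a long and a short region rose on the forward strand. The short one, chr1:163528200-163528398, averaged 7.56, 7.55, 7.93 and 7.91 in controls and 9.75, 9.36, 9.63 and 9.68 in S539, S588, S589 and S590. It had the smallest adjusted p of the 15, with a change of 1.87 (SE 0.16, 3.64-fold, adjusted p = 0.0042). The long one, chr1:163508244-163586072, averaged 7.42, 7.77, 8.12 and 8.25 against 9.98, 9.45, 9.85 and 9.68, a change of 1.85 (SE 0.22, adjusted p = 0.0156) that its 5 probes shared (1.68 to 1.96). The short region lies inside the long one, so these are not separate loci. The nearest gene probes, for the cytokine genes Tnfsf18 and Fasl, lie 72833 and 124984 bases from the long region, and their changes of -1.42 and -1.55 did not pass. That of Tnfsf18 was dim, well above background on 3 arrays, with means of 5.22 in controls and 3.80 in exposed thyroids (SE of the change 0.87).

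The remaining rises were near 2-fold. The reverse strand of chr11:120079199-120130099, near a Bahcc1 probe, rose by 1.15 (SE 0.15, adjusted p = 0.0221). That of chr1:6181200-6204300, with the nearest Rb1cc1 probe 51374 bases away, rose by 1.12 (SE 0.15, adjusted p = 0.0232). The reverse strand of chr4:116791819-116798263 rose by 1.10 (SE 0.14, adjusted p = 0.02). It contains 2 Btbd19 probes, one that rose by 1.04 (adjusted p = 0.0293) and one, above background on 2 arrays, with -0.64 (adjusted p = 0.458). The region lies 3054 bases from a probe of Plk3, a stress-responsive kinase gene, which rose by 1.26 (adjusted p = 0.0175). On chr3:131128972-131163308, reverse strand, 4 probes averaged to a change of 0.92 (SE 0.15, adjusted p = 0.0468) although none passed alone, and the forward strand had -0.00.

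A further rise rested on 1 probe. On chr17:15111725-15139800 the only detected reverse probe read 6.31, 6.34, 6.84 and 6.60 in controls and 7.98, 9.08, 8.82 and 8.79 in exposed thyroids (2.14, SE 0.26, adjusted p = 0.0158), against -0.27 for the 2 forward probes. Neither gene inside the interval passed, 9030025P20Rik with -0.85 and Gm3448 with 0.82. A single probe has no second reading of the same strand to set beside it.

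Few region strands fell. At chr2:67411703-67412293, forward, the 3 probes averaged 8.57, 8.89, 8.72 and 8.95 in controls and 7.52, 7.79, 7.73 and 7.88 in exposed thyroids, a change of -1.05 (SE 0.15, adjusted p = 0.0266). The groups were apart and all 3 probes were lower (-1.15 to -0.90). The nearest gene probe, for Xirp2 on the same strand, lay 47683 bases away and changed by -1.31 without passing (adjusted p = 0.548). The other fall was 1 forward probe of chr1:193815525-193825775, which read 10.37, 10.55, 10.72 and 10.12 against 8.82, 9.09, 9.57 and 9.22 (-1.26, SE 0.21, adjusted p = 0.0447). It lies opposite Traf5, a signalling adaptor gene inside the interval, whose probe had -0.70 (adjusted p = 0.121).

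Among the 5 largest declines with the groups apart, those that did not pass included a place beside thyroglobulin (Tg), the precursor of thyroid hormone. On chr15:66684765-66685491, forward, 3 probes averaged 9.80, 10.48, 10.95 and 10.17 in controls and 8.76, 9.36, 9.45 and 9.21 in exposed thyroids, without overlap (-1.16, SE 0.27, adjusted p = 0.142). The longer region around it, chr15:66682293-66722977, had -0.99 (adjusted p = 0.233), and 1 of its forward probes fell alone, by 1.78 (A_30_P01024072, adjusted p = 0.0287). It starts 156 bases from a Tg probe that read 18.7 to 19.1 on all arrays, with a change of 0.04. That signal is at the top of the scale, where quantile normalization gives the brightest probes nearly the same values on each array. The 0.04 is therefore little guide to the level of Tg. Further declines with the groups apart were on chr18:63355660-63369610 reverse (-1.21, adjusted p = 0.125), chr6:40699474-40719122 forward (-0.98, adjusted p = 0.151) and chr1:85036677-85038530 reverse (-0.94, adjusted p = 0.169).

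The last of the called probes lay on region strands that did not pass. On chr14:33923944-34003394, reverse, A_30_P01024957 fell by 1.90 (adjusted p = 0.0235) while the strand's mean changed by -0.44, and the probe adjoining it had 0.17. Outside the rule for named regions, the forward strand of chr6:128393530-128394127 had 0.78 (adjusted p = 0.0757) and the reverse strand of chr15:84737071-84753414 had -0.43 (adjusted p = 0.289), each with 1 called probe.

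The thyroid is a mixed tissue, and in such samples fewer cells of a type and less RNA per cell cannot be told apart. Of 16 thyrocyte markers 15 were detected on all arrays, their mean log2 signal was 11.8 to 12.6 in controls and 11.4 to 11.5 in exposed thyroids, and 2 (beside 0.194% of all probes lower) passed the threshold: the iodide transporter gene Slc5a5 fell by 3.53 and the deiodinase gene Dio1 fell by 2.46. The mean of 9 macrophage markers was 10.1 to 10.6 against 9.64 to 10.03, and 1 of them, Cx3cr1, fell by 2.43. The 12 T cell and thymocyte markers, 5 of them detected on all arrays, averaged 11.6, 10.6, 6.98 and 6.76 in controls 1 to 4 and 6.86 to 8.05 in exposed thyroids. Rag1, a gene of receptor rearrangement in immature lymphocytes, read 11.96, 10.64, 2.89 and 2.92 in controls and 2.80 to 5.45 in exposed thyroids. The 9 skeletal muscle markers averaged 15.6 to 17.0 in controls and 14.3 to 16.5 in exposed thyroids, lowest in S539 and S589. None of the markers of C cells, parathyroid, B cells, endothelium, fibroblasts or adipocytes passed. Of 5 ciliated cell markers 1, Foxj1, rose past the threshold, by 2.49 (beside 0.587% of all probes higher). Tekt1 went the other way, by -1.83, without passing (adjusted p = 0.0899), and the others changed by -0.11 to 0.14. The part of these cell types in the falls and rises of the regions was not tested.

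Of a list of 50 p53 target genes, 49 were on the array, 31 rose and none fell, beside 0.587% and 0.194% of all probes. With each region counted under 1 gene only, the nearest RefSeq gene was one of these for 5 member regions. Of these, 3 had a called probe, beside 1.36% of all member regions: the pair beside Mdm4, which overlap and are 1 locus, and chr15:62090565-62091770 beside Pvt1. The pair beside Trp53inp1 had none. The regions chr15:61984389-62102500 and chr15:62046023-62082530 hold probes of both Pvt1 and H2afy3. They were counted under H2afy3 and are not among the 5, though both had called probes. The 5 thus leave out regions where a listed gene ties with another, and regions where another gene's probe lies nearer. Of the regions with called probes, chr17:29183003-29217681, on the side of Cdkn1a, was counted under Srsf3. Likewise chr4:116791819-116798263, near Plk3, was counted under Btbd19, which has a probe inside it. The long noncoding RNA genes with probes of their own numbered 28 of the 52 listed: 2 rose, Pvt1 and Snhg12 (0.95, adjusted p = 0.0233), and none fell, beside the same shares of all probes.

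The 2 strands of a region were compared as a difference within each array, and that difference was then compared between the groups. A probe's own brightness stays in the difference on an array and cancels only between the groups. Of 578 regions detected on both strands, 367 (63.5%) had the same sign of change on each. The change in the forward-minus-reverse difference had a median size of 0.24 and a 90th percentile of 0.70, and it passed the threshold in 4 regions (0.692%). In all 4 the groups did not overlap, as in 29 of the 578 regions (5.02%).

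At chr17:15111725-15139800 the forward-minus-reverse difference was 2.26, 2.64, 2.52 and 2.38 in controls and 0.85, -0.64, -0.07 and -0.00 in exposed thyroids, a change of -2.42 (SE 0.30, adjusted p = 0.00862). The reverse strand rose by 2.14 while the forward strand changed by -0.27. At chr1:163508244-163586072 the difference went from 0.39, 0.55, 1.21 and 0.75 to 2.87, 1.89, 2.76 and 2.15, a change of 1.69 (SE 0.29, adjusted p = 0.0267). The first printed pair shows this on the same bases: the forward probe had 1.68 and the reverse probe 0.16, with 56 bases in common.

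At chr17:88225376-88238756 the difference was -1.39, -1.62, -2.0 and -1.07 in controls and 0.89, 0.95, 0.34 and -0.29 in exposed thyroids (1.99, SE 0.32, adjusted p = 0.0267). The single forward probe read 7.46, 7.22, 6.80 and 7.74 against 9.86, 10.08, 9.15 and 8.50. That is a change of 2.09 with the groups apart, which did not pass as a region strand (adjusted p = 0.0615), while the reverse probe that shares 46 bases with it had 0.06. At chr1:193815525-193825775 the difference fell from 2.48, 2.21, 2.14 and 1.71 to 0.40, 0.04, 0.94 and 0.85 (-1.58, SE 0.27, adjusted p = 0.0267), with the forward strand lower and the reverse strand at 0.31. In each of the 4 regions at least 1 strand was read by a single probe, and in 3 of them that probe was the one that moved.

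**Figure D4:**
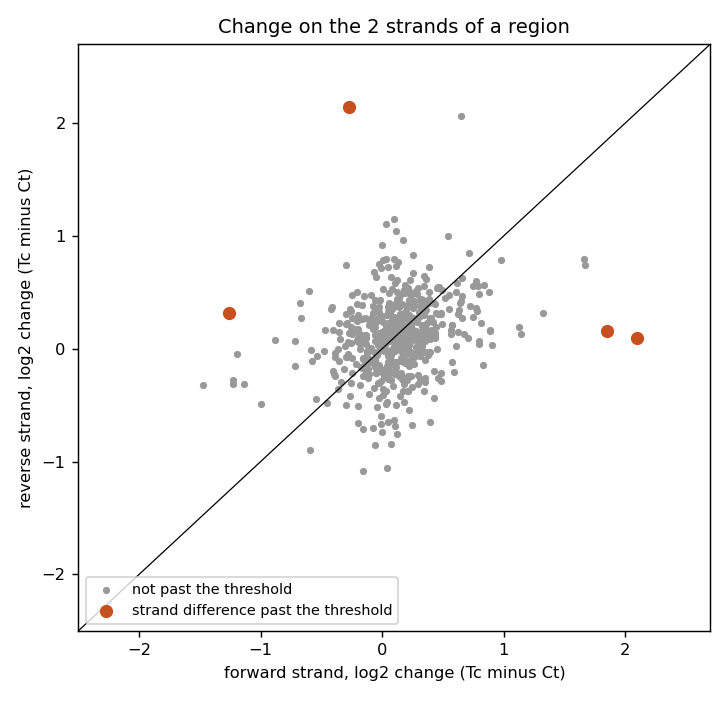
Log2 change of the forward strand (x axis) against that of the reverse strand (y axis), Tc minus Ct, for the 578 regions detected on both, with the line of equal change. The 4 coloured regions, whose strands differed past the threshold, lie away from the line, with changes of -0.27 and 2.14 at chr17:15111725-15139800 and 1.85 and 0.16 at chr1:163508244-163586072.

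Within a strand, 3852 differences between a probe and the other probes of its region strand were tested, and 5 passed (0.13%). Their median size was 0.16 and the 90th percentile 0.59. All 3 probes of the long Pvt1 region are among them. A_30_P01027502 and A_30_P01026887 had -1.43 and -1.41 against a mean that contains A_30_P01029551, so these restate its difference and are not separate findings. The rest are A_30_P01022528 of the Cdkn1a side and A_30_P01024957 of chromosome 14 (-1.82, adjusted p = 0.0434).

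Some long noncoding RNAs are named by the array itself, and 7 of the 12 regions so named were members. They are described because of their names, after their values were seen. NEAT1, which builds nuclear paraspeckles, read 15.39, 15.32, 15.94 and 15.97 in controls and 15.87, 16.02, 15.99 and 16.01 in exposed thyroids (0.32, SE 0.19, adjusted p = 0.531). For NEAT2, another name of Malat1, a nuclear speckle RNA, the region chr19:5795689-5802671 read 10.22, 11.02, 12.11 and 12.01 against 12.65, 11.42, 11.34 and 12.08 (0.53, SE 0.49, adjusted p = 0.68). Both pairs of groups overlapped, and without controls 1 and 2 the change of NEAT2 was -0.19. An unnamed region nested in that of NEAT2, chr19:5801802-5802597, was far brighter, with 16.33, 15.92, 16.77 and 16.37 against 17.17, 16.90, 16.79 and 16.80. The groups were apart, and the change of 0.57 did not pass in limma (adjusted p = 0.324). Its exact permutation p (two-sided, unadjusted) was 0.0286, the lowest that test can give. Any region strand with the groups apart reaches it, so it adds nothing to the separation.

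H19, an imprinted RNA of fetal growth, was the most variable of the named members. Its 5 probes averaged 12.97, 11.97, 11.20 and 13.25 in controls and 9.42, 12.32, 9.19 and 12.82 in S539, S588, S589 and S590. Thus S588 and S590 were within the range of the controls and S539 and S589 below it, and the mean change of -1.41 (SE 0.94) was well within this spread (adjusted p = 0.57). The 5 probes gave nearly the same change, -1.46 to -1.37. The skeletal muscle markers were also lowest in S539 and S589, with a mean log2 signal of 14.3 and 14.5 against 16.0 and 16.5 in S588 and S590 and 15.6 to 17.0 in controls. Their part in the H19 values was not tested. Without S539 and S589 the change of H19 was 0.22.

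XIST, the RNA that coats the inactive X chromosome, read 12.28 to 13.09 in controls and 12.69 to 13.35 in exposed thyroids (0.33, adjusted p = 0.625; -0.02 without controls 1 and 2), and TUG1 changed by -0.18 (adjusted p = 0.744). NRON, a regulator of NFAT transport, changed by -0.11 (adjusted p = 0.834), a sign that scaling to the 75th percentile turned to 0.05. KCNQ1ot1, as the array names it, is read on the forward strand and changed by 0.18 (adjusted p = 0.656), whereas the RefSeq probe for Kcnq1ot1 is on the reverse strand. Of the named regions that were not members, HOTAIR and TSIX had 1 detected probe of 5, and lincP21, PINC and BRN1-A had none.

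**Figure D5:**
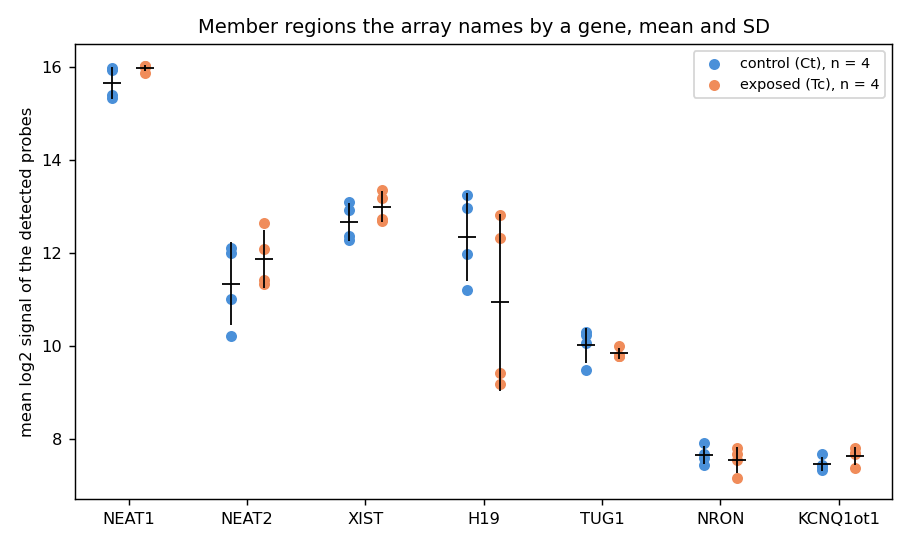
Mean log2 signal of the detected probes (y axis) of the 7 member regions that carry a gene name on the array, a point for each array of Ct and Tc (n = 4 each), with mean and SD. Groups overlap in all 7, and H19 in Tc spreads from 9.19 to 12.82.

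None of the 5 brightest region strands passed the threshold. Beside NEAT1 and the region nested in NEAT2 they are chr17:17481706-17482457 reverse, chrX:138967807-138968413 reverse and chr17:39982023-39983277 forward. The first read 16.52, 16.55, 16.45 and 16.49 in controls and 16.07, 16.17, 16.09 and 16.24 in exposed thyroids, with the groups apart (-0.36, SE 0.11, adjusted p = 0.274). The second had 15.87 in both groups, and the third had 14.80 and 15.01. The third lies 1781 bases from a probe for 18S ribosomal RNA on the same strand, which read 18.57 in controls and 18.67 in exposed thyroids. Whether the third region reads ribosomal RNA was not tested.

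The regions with the most detected probes also gave the densest view of both strands. At chr16:43623581-43642715, 4492 bases from a probe of the transcription factor gene Zbtb20, 18 of 20 probes were detected, and the 10 forward probes changed by 0.17 to 0.37 each (mean 0.31, adjusted p = 0.582) and the 8 reverse probes by 0.16 to 0.66 (mean 0.43, adjusted p = 0.448). At chr7:99879368-99889978, 17 of 20 were detected, with mean changes of 0.44 forward and 0.19 reverse. At chr11:95627874-95640824, 2006 bases from a Zfp652 probe, 16 of 19 were detected, with -0.30 forward and -0.50 reverse (adjusted p = 0.355, groups apart on the reverse strand). None passed the threshold, though every detected probe of the chromosome 16 region was above 0 and every one of the chromosome 11 region below 0.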

How the data were processed

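The authors deposited the scanner output of 8 1-colour Agilent arrays (4 control, 4 exposed), in which each spot's intensity is given raw and, as made by the Feature Extraction software, background-subtracted, with flags for signal above background. They also deposited log2 values, quantile-normalized in limma per the methods, with a threshold of 0.05 on the adjusted p.

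Here that subtracted signal was put on a log2 scale and quantile-normalized between arrays, control spots were left out and spots of a probe were averaged (55681 probes from 59305 spots). Groups were compared with R 4.3.3 and limma 3.58.1 (lmFit, eBayes, Benjamini-Hochberg adjustment over every probe, or over every row for region strand means, strand differences and probe differences). Differences between strands or probes were formed within each array. Every adjusted p in the text is from limma. The exact permutation test (two-sided) ran over 70 assignments of arrays and cannot give a p below 0.0286. A limma p sets the difference between the groups against the spread between these samples within a group, partly pooled across probes. Cross-hybridisation of the 60-base probes was not examined. Signal well above background (60.5% to 77.3% of spots per array) and the number of arrays limit precision.

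The named regions are those with called probes (the 15 of smallest p), the 5 brightest region strands, the 5 largest rises and 5 largest falls with probes of 1 sign and groups apart, regions with differing strands or probes, and the 3 with most detected probes. The members, gene lists and rules were chosen with earlier results of these data known. The fits were tested on simulated data. Alternatives were 75th-percentile scaling, normexp (offset 50), the deposited log2 values, detected probes alone, outlier spots left out, a variance trend, array weights, the methods' t-test, other detection rules and leaving out each array, with controls 1 and 2, and S539 and S589, left out as pairs after seeing the data. Probe positions and gene names are those of the array files (mm9), and no genome was used. Distances to a gene are therefore distances to its probe, and the gene itself may lie closer.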

Additional observations from a re-analysis of the deposited data

Results flagged for a closer look

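On the reverse strand of the TUG1 region (chr11:3539796-3547536), the mean log2 signal of exposed thyroid S589 was 10.0058, apart from the other exposed thyroids at 9.78 to 9.79, though within the controls' range of 9.48 to 10.29. Of 60 groups of 4 arrays compared in this way 1 was found, and chance gives about 1 in 20 groups.

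Outside the regions' detection rule, 88 of the 16251 lincRNA probes were well above background on all 4 exposed arrays and on no control array, in 83 regions. The opposite pattern was found for 6 probes. Among those are 3 probes of chr16:17833211-17835112, forward strand, with changes of -3.37 to -3.38. Both sets were chosen by the groups, so no test is given. The same counts over all probes of the array are not given, so whether this difference is particular to lincRNA probes was not tested. The share of lincRNA probes above background was 41.7% to 63.0% on control arrays and 58.0% to 67.6% on exposed arrays, and its part in this difference was not tested.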

How the results depend on the processing

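Against 39 member probes, 19 regions and 15 region strands past the threshold, there were 81, 46 and 27 with normexp, 90, 51 and 31 with the deposited values, 88, 50 and 34 when only detected probes were tested, 65, 35 and 23 with a variance trend, and 76, 40 and 28 with array weights. Scaling to the 75th percentile gave 50, 27 and 17, and the methods' t-test 30, 17 and 13, with 3 of the 15 region strands lost. Strand differences numbered 7 with array weights (4 otherwise) and 0 with the methods' t-test, and probe differences (5) 3 with 75th-percentile scaling and 0 with the t-test (which gave 46 strand and 269 probe differences at an unadjusted p under 0.05, and limma 38 and 287). That scaling moved the median change of member probes from 0.109 to 0.246 and of all probes from 0.00767 to 0.165. Leaving out 1 array gave 8 to 37 probes, 5 to 21 regions, 3 to 15 region strands, 0 to 4 strand differences and 1 to 3 probe differences, with the lowest count of probes, regions and region strands without S590. No lower call remained without any 1 of control 2 or the exposed arrays. Without controls 1 and 2 (an alternative chosen after seeing the data) there were 4 probes, 2 regions, 1 region strand, 0 strand and 0 probe differences (73 and 407 at an unadjusted p under 0.05 in limma), and without S539 and S589 (likewise) 0, 0, 0, 1 and 0 (442 probes, 164 region strands and 299 probe differences unadjusted). Each of these fits has 6 arrays. The changes of NEAT2 (-0.188), XIST (-0.0179) and chrX:138967807-138968413 reverse (-0.0445) turned sign in the first of these and those of H19 (0.224) and chr17:39982023-39983277 (-0.208) in the second. In the 16 other alternatives chr1:163528200-163528398 forward and chr4:149445201-149445902 forward passed the threshold (highest adjusted p with an array left out 0.0292 and 0.0401). In 15 of the 16, chr15:62046023-62082530 forward (0.0531 without S590) and chr17:29183003-29217681 reverse (0.0506 without S589) did. The fall at chr1:193815525-193825775 was lost in each of the 8 leave-outs (up to 0.153), and the one at chr2:67411703-67412293 in all but 1 (up to 0.107). Changes near 0 turned sign: chr2:33661335-33669111 (NRON) 0.0502 with 75th-percentile scaling and -0.193 to 0.0207 with an array left out, chrX:138967807-138968413 reverse -0.00282 with normexp, -0.00681 with the deposited values and -0.0666 to 0.124 with an array left out, and chr17:39982023-39983277 -0.00113 to 0.368. Detection on 7 arrays gave 6219 probes in 1654 regions, and at least 3 probes gave 3925 in 857. The causes were not tested. No paired analysis was possible because the groups share no replicate numbers. Intensity near background limits the dimmest members.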
